A study of Homo sapiens with 6 samples.

Results

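The transcripts examined here were those of MYC and its dimerization network (MAX, MNT, MXD1, MXD3, MXD4, MXI1 and MLX) together with the zinc finger factors SP1 and SP2. These 10 genes were chosen by symbol, since MYC, SP1 and SP2 have been reported as METTL3 targets in leukemia, and the rule itself uses no measured value, although the list was drawn up with earlier results of these data known. Each symbol was matched to its Ensembl identifier among the 61661 identifiers of the count table. All 10 were found, and all 10 were among the 17686 genes with enough reads to be tested.

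MYC is a basic helix-loop-helix leucine zipper protein that binds DNA only as a dimer with MAX, mostly at E-boxes (CACGTG), and recruits coactivators to genes of growth, ribosome production and metabolism. MAX also pairs with MNT and with MXD1, MXI1 (also called MXD2), MXD3 and MXD4, which carry SIN3 and histone deacetylases to the same sites and so oppose MYC. MLX is a relative of MAX that pairs with the glucose-responsive factors MLXIP and MLXIPL and with some of the same repressors. SP1 binds GC-rich boxes in many promoters, and SP2 is a relative that is known to occupy CCAAT-containing promoters with the NF-Y complex. In leukemia, MYC drives proliferation and a block of differentiation. METTL3 is the catalytic subunit and METTL14 the RNA-binding partner of the enzyme that places N6-methyladenosine (m6A) in mRNA, a mark that affects how mRNA is spliced, translated and degraded.

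The study asked how signaling changes in leukemia cells when METTL3 or METTL14 is knocked down. K562, an established line of chronic myeloid leukemia in blast crisis that first grew from a pleural effusion, was sequenced as shCTR cells (genotype label WT), shMETTL3 cells (METTL3 knockdown) and shMETTL14 cells (METTL14 knockdown), with 2 libraries in each group. The shCTR and shMETTL3 lines were stable lentiviral lines with a puromycin marker, and the shCTR virus carried a nonsense sequence, so the controls also went through transduction. The study's methods describe the METTL3 and the control virus, but the METTL14 shRNA is not described in the sources used here. A single METTL3 knockdown sequence is listed, and the number of METTL14 constructs is not given. Effects of the shRNA itself and of the lost protein are therefore not told apart. The labels do not say whether the 2 libraries of a group came from separate cultures, so the p-values measure the spread between these libraries, which may be technical.

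Library totals ran from 19292574 to 20115304 reads. Levels are given as CPM, counts scaled to one common library size with the TMM factors of edgeR. Each value is therefore relative to the other transcripts of its library, and in bulk RNA fewer cells that carry a transcript and less of it per cell cannot be told apart. METTL3 fell from 1788 and 1728 reads in the controls to 1031 and 938 in shMETTL3 libraries (log2 fold change -0.87, SE 0.0783, edgeR adjusted p = 3.44e-07), and METTL14 from 656 and 655 reads to 375 and 404 in shMETTL14 libraries (-0.76, SE 0.0886, edgeR adjusted p = 1.40e-05), so both labels matched their target. All 10 K562 markers were detected, at a summed 1254 to 1651 CPM, lowest in both shCTR libraries. The 4 T cell markers summed to 3.34 to 6.18 CPM and the 4 B cell markers to 1.73 to 3.77. The 4 stromal markers summed to 2.87 to 7.03 CPM. These sums were all highest in both shMETTL3 libraries. The 4 epithelial and mesothelial markers summed to 70.6 to 93.6 CPM, highest in both shCTR libraries (91.8 and 93.6), with KRT5 at 0. The 4 monocyte markers summed to 42.8 and 44.3 CPM in shCTR, 17.4 and 16.1 in shMETTL3 and 60.5 and 66.1 in shMETTL14 libraries. Only 2 of these 4 had more than 3 reads in any library, so the sums rest on few genes. The part of these shifts in the results was not tested.

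In shCTR cells MYC was by far the most abundant of the 10 transcripts. Levels were divided by the length in kilobases of the longest GENCODE transcript, so that genes of unequal length could be set side by side. That transcript need not be the form expressed, and the order below depends on it. MYC stood at 163 ± 4.76 CPM per kb (SD, n = 2), above 98.2% of the 16662 tested genes with a known length. MLX followed at 26.6 ± 1.03 and MAX at 22.1 ± 0.553 CPM per kb. SP1 came next at 15.6 ± 1.04 and MXD3 at 13.1 ± 0.996 CPM per kb. MXD4 at 10.1 ± 0.793, MXD1 at 9.55 ± 0.573, MXI1 at 9.45 ± 0.459 and SP2 at 8.41 ± 1.28 CPM per kb lay within 1 SD of their neighbours in this order and were not told apart. MNT was lowest at 4.85 ± 0.567 CPM per kb, near the middle of all tested genes (46.8% were lower).

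**Figure D1:**
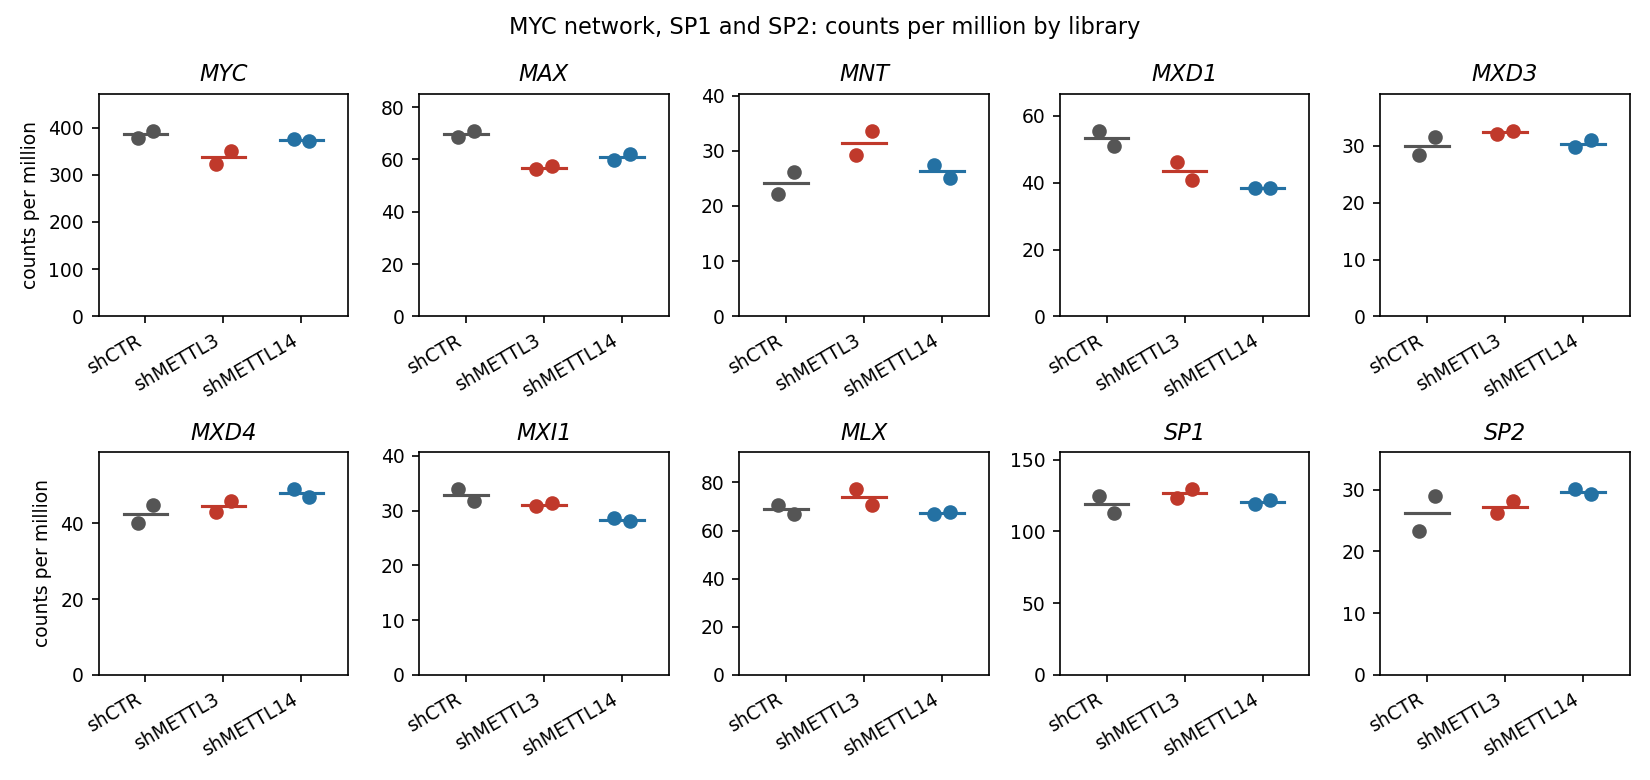
CPM (vertical axes, from 0) of the 10 transcripts in each of the 6 libraries, by group; points are libraries and short lines are the group means of 2 libraries. MYC and MAX were lowest in both shMETTL3 libraries, MNT was highest there, and MXD1 was lowest in both shMETTL14 libraries.

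In shMETTL3 cells, 4 of the 10 transcripts passed the test, with MYC, MAX and MXD1 lower and MNT higher than in shCTR cells. Over all tested genes 16.5% passed (8.73% higher and 7.73% lower), so the 4 of 10 stand beside a broad background of change. Shares over all genes, here and below, are not matched to the members in read depth. Small changes are called more easily at high counts, and each member had at least 439 reads in every library. The 10 log2 fold changes ran from -0.29 to 0.38 with a median of 0.06, where the median over all genes was 0.0030. No member moved by as much as METTL3 itself. Without shMETTL3-2 none of the 10 passed, without shCTR-1 or without shMETTL3-1 only 2 did, and the other alternatives gave between 3 and 4. With scaling by library size alone, 71.55% of the calls over all genes were higher in shMETTL3 cells, against 53.02% with TMM.

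MYC (ENSG00000136997) had 7464 and 7536 reads in both controls (378 and 394 CPM) and 6355 and 7021 reads in the shMETTL3 libraries (324 and 350 CPM). Both shMETTL3 libraries lay below both shCTR libraries, and the 2 shMETTL3 libraries differed from each other more than the 2 shCTR libraries did. The log2 fold change was -0.20 (SE 0.0589, 95% interval -0.32 to -0.07, edgeR adjusted p = 0.0270), a level 12.7% lower. This was a modest change for these cells, since 54.3% of tested genes had a smaller one. The call was lost with scaling by library size alone, with the 2 groups fitted on their own, and without shCTR-2, shMETTL3-1 or shMETTL3-2, with adjusted p between 0.00137 and 0.301 over 13 alternatives and log2 fold changes from -0.25 to -0.14.

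MAX (ENSG00000125952), the partner that MYC needs to bind DNA, had 1355 and 1360 reads in the controls and 1110 and 1151 in shMETTL3 libraries. The groups did not overlap, and replicates lay close together. Its log2 fold change was -0.29 (SE 0.0671, 95% interval -0.43 to -0.15, edgeR adjusted p = 0.00509). MAX passed under 11 of 13 alternatives. The call was lost without shMETTL3-1 (log2 fold change -0.28, edgeR adjusted p = 0.065) and without shMETTL3-2 (-0.30, edgeR adjusted p = 0.0586), and the log2 fold change lay between -0.32 and -0.24 over all 13.

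Among the antagonists of MYC, the direction was mixed. MNT (ENSG00000070444), the widely expressed repressor that competes with MYC for MAX, had 439 and 502 reads in the controls and 574 and 675 in shMETTL3 libraries. Each shMETTL3 library was above both shCTR libraries, with a log2 fold change of 0.38 (SE 0.10, 95% interval 0.17 to 0.59, edgeR adjusted p = 0.0139). The call was lost without shCTR-1, without shMETTL3-2 and with a GC and length correction, with adjusted p up to 0.216. Of the exonic bases of MNT, 12.2% overlap another annotated gene, AC006435.1, and the strand setting of the counting is not given in the sources used here, so part of its reads may be uncertain.

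MXD1 (ENSG00000059728), the repressor that rises when blood cells leave the cycle and differentiate, had 1099 and 978 reads in the controls and 906 and 821 in shMETTL3 libraries. The log2 fold change was -0.29 (SE 0.0783, 95% interval -0.46 to -0.13, edgeR adjusted p = 0.0138). MXD1 was the one antagonist called in the same direction as MYC and MAX. Without shCTR-1 or without shMETTL3-2 the call was lost, with adjusted p up to 0.249.

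MXD3, MXD4, MXI1 and MLX did not pass the test in shMETTL3 cells. MXD3 (ENSG00000213347), expressed in S phase, had 560 and 604 reads in the controls and 632 and 656 in shMETTL3 libraries, with a 95% interval for its log2 fold change of -0.06 to 0.29. MXD4 (ENSG00000123933) had 794 and 860 against 846 and 923 reads (interval -0.10 to 0.23), and MXI1 (ENSG00000119950) had 670 and 606 against 605 and 628 reads (interval -0.25 to 0.09). MLX (ENSG00000108788) had 1398 and 1282 reads in the controls and 1517 and 1417 in shMETTL3 libraries, with an interval of -0.04 to 0.25. Of these, MXD4 and MLX overlapped between the groups. The exons of MXD3 share 40.4% of their bases with PRELID1 and RAB24, and those of MLX share 18.1% with PSMC3IP, so the reads of these genes are uncertain without the strand setting.

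SP1 and SP2 were not called either. SP1 (ENSG00000185591) had 2458 and 2168 reads in the controls and 2427 and 2599 in shMETTL3 libraries, with a log2 fold change of 0.09 (SE 0.0659, 95% interval -0.05 to 0.23, edgeR adjusted p = 0.381). SP2 (ENSG00000167182) had 462 and 555 reads in the controls and 516 and 564 in shMETTL3 libraries, with a log2 fold change of 0.06 (SE 0.0995, 95% interval -0.15 to 0.26, edgeR adjusted p = 0.759). The groups overlapped for both genes, and the shCTR libraries were further apart than the shMETTL3 libraries. Neither gene passed under any of the 13 alternatives. Neither shares exonic bases with another annotated gene.

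**Figure D2:**
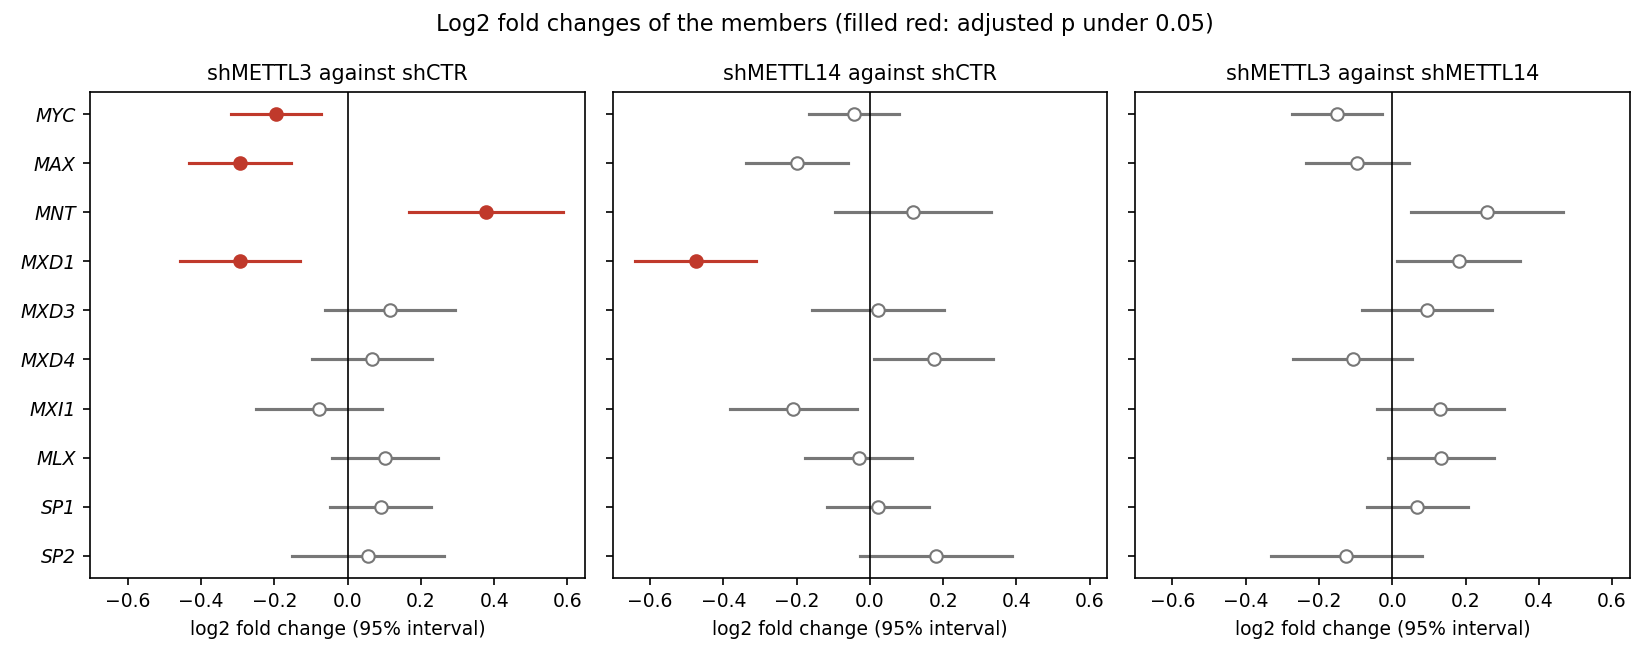
Log2 fold changes (horizontal axes) with 95% intervals of the 10 transcripts in 3 comparisons, from edgeR over all 6 libraries; filled red points passed the threshold on the adjusted p and open grey points did not. MYC, MAX and MXD1 were lower and MNT higher in shMETTL3 than in shCTR cells, MXD1 was lower in shMETTL14 cells, and no member passed between the knockdowns.

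In shMETTL14 cells, 1 of the 10 transcripts passed the test, beside 6.69% of all genes (3.43% higher and 3.26% lower). MXD1 had 753 reads in each shMETTL14 library, below the 1099 and 978 reads of shCTR. Its log2 fold change was -0.48 (SE 0.0792, 95% interval -0.64 to -0.31, edgeR adjusted p = 7.10e-04), a level 28.1% lower, and 86.8% of genes had a smaller change. It passed under all 13 alternatives, with log2 fold changes from -0.54 to -0.41. With scaling by library size alone, 62.65% of the calls over all genes were higher in shMETTL14 cells, against 51.27% with TMM.

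MYC itself had 7405 and 7280 reads in shMETTL14 libraries, with a log2 fold change of -0.04 (SE 0.0588, 95% interval -0.17 to 0.08, edgeR adjusted p = 0.732). MAX had 1172 and 1215 reads there, below both shCTR libraries, with a log2 fold change of -0.20 (SE 0.0668, 95% interval -0.34 to -0.06). Its edgeR adjusted p of 0.0833 missed the threshold, and it was called under 1 of 13 alternatives, the GC and length correction (adjusted p = 0.0236). MXI1 stood at 28.6 and 28.1 CPM, below the 33.9 and 31.7 CPM of the controls, with a log2 fold change of -0.21 (edgeR adjusted p = 0.148), and was called under none of the alternatives.

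The remaining members were not called in shMETTL14 cells. MXD4 had 964 and 920 reads (log2 fold change 0.17, edgeR adjusted p = 0.206) and SP2 had 591 and 573 reads (0.18, edgeR adjusted p = 0.314), above both shCTR libraries in each case. Both were called only without shCTR-2, a setting in which 3 members passed in place of 1. The 95% intervals were -0.10 to 0.33 for MNT, with 540 and 491 reads, and -0.16 to 0.20 for MXD3, with 585 and 608 reads. For MLX, with 1318 and 1329 reads, the interval was -0.18 to 0.12, and for SP1, with 2342 and 2395 reads, it was -0.12 to 0.16. These 4 overlapped with the shCTR libraries.

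Between the knockdowns, which is the test of whether their effects differ, none of the 10 transcripts passed in edgeR or in DESeq2, beside 12.1% of all genes in edgeR (6.65% higher and 5.49% lower in shMETTL3 cells). At an unadjusted p under 0.05, 3 members did: MYC at a log2 fold change of -0.15 (edgeR adjusted p = 0.106), MNT at 0.26 (edgeR adjusted p = 0.102) and MXD1 at 0.18 (edgeR adjusted p = 0.163). The fall of MYC in shMETTL3 cells is thus not shown to differ from its value in shMETTL14 cells, and the 95% interval of that difference was -0.28 to -0.03. For MNT the interval was 0.05 to 0.47, and for MXD1 it was 0.01 to 0.35. MYC and MNT both passed when the 2 knockdowns were fitted on their own, without shCTR-1 or without shCTR-2, and MYC alone passed with the GC and length correction. With scaling by library size alone, 64.98% of the calls over all genes were higher in shMETTL3 than in shMETTL14 cells, against 54.8% with TMM.

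The balance of the network can be read as a ratio of transcript levels per kilobase. MYC stood at 3.46 and 3.47 times the summed level of MNT, MXD1, MXD3, MXD4 and MXI1 in the shCTR libraries, at 2.89 and 3.06 times in the shMETTL3 libraries and at 3.52 and 3.51 times in the shMETTL14 libraries. The shMETTL3 libraries were thus below the other 4, while the summed level of the 5 antagonists itself changed little, from 44.7 to 48.3 CPM per kb over the 6 libraries. The ratio of MYC to MAX was 7.35 and 7.39 in shCTR, 7.63 and 8.13 in shMETTL3 and 8.42 and 7.99 in shMETTL14 libraries, higher in each knockdown library than in either control. With 2 libraries a group, no exact permutation test of these ratios can pass a threshold of 0.05, and none was run. These are transcript ratios and say nothing of protein or of dimers. In the sum, MXD3 was the largest term in the controls (13.1 CPM per kb) and shares 40.4% of its exonic bases with other genes. MNT shares 12.2%. The reads of both are uncertain without the strand setting, and the size of each ratio depends on the transcript lengths used.

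The shares of MXD1 and MNT among the antagonists lay apart from the controls in both knockdowns, and no test was run on them. MXD1 made up 21.6% and 19.1% of their summed level in shCTR, 17.5% and 15.2% in shMETTL3 and 15.2% and 15.4% in shMETTL14 libraries. MNT made up 9.64% and 10.9% in shCTR, 12.4% and 13.9% in shMETTL3 and 12.2% and 11.2% in shMETTL14 libraries. All 4 knockdown libraries were below both controls for MXD1 and above both for MNT. Shares of the same sum are not separate observations, since a fall of MXD1 alone raises the share of MNT. The level of MNT itself overlapped with the controls in shMETTL14 cells (log2 fold change 0.12, edgeR adjusted p = 0.562). The ratio of SP1 to SP2 was 2.18 and 1.60 in shCTR, 1.92 and 1.89 in shMETTL3 and 1.62 and 1.71 in shMETTL14 libraries, so the shCTR libraries spanned all the others.

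**Figure D3:**
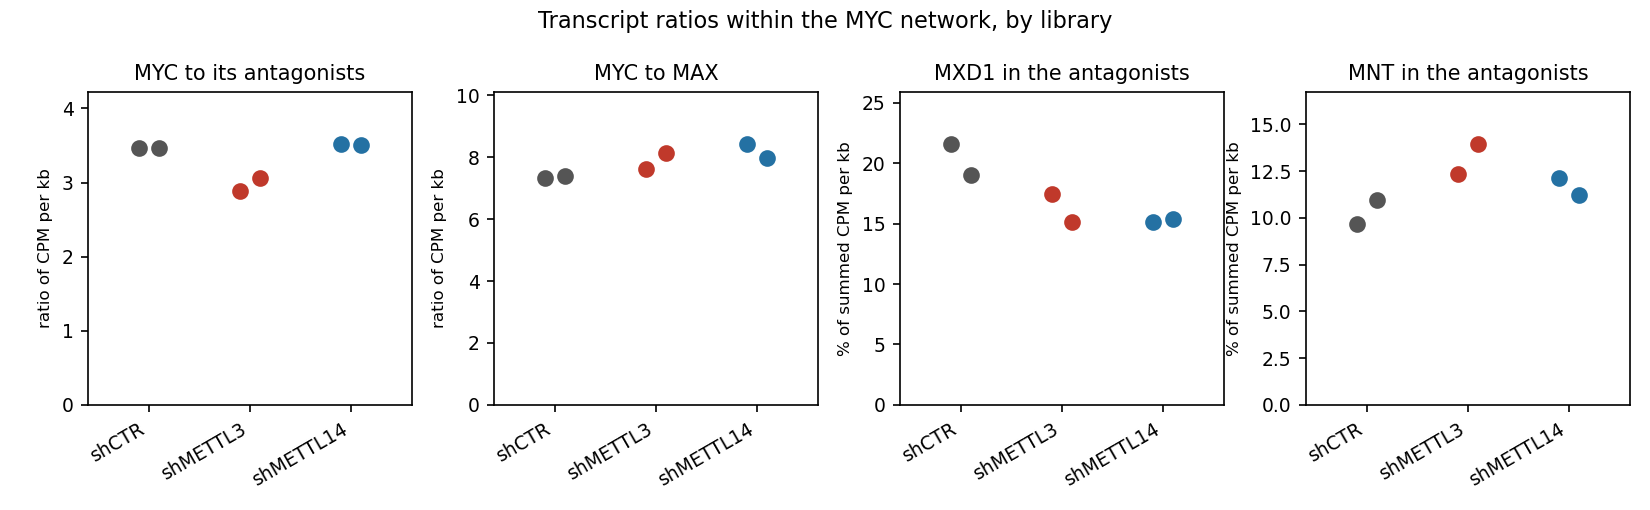
Ratios of CPM per kb (MYC to the sum of its 5 antagonists, MYC to MAX) and the percent of the antagonists' summed CPM per kb that MXD1 and MNT made up, for each of the 6 libraries as a point; axes start at 0. MYC to antagonists was 2.89 and 3.06 in shMETTL3 libraries and 3.46 to 3.52 in the other 4.

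Promoter sequence was examined for the letters that these factors read, as a description of the loci. RefSeq (GRCh38.p14) promoters of 300 bases, from 250 before to 50 after the start, were matched for 9 of the 10 members, with 13 starts in all. The member without a match was MYC, so its promoter was not examined and the counts below do not cover it. The E-box CACGTG, searched on both strands, was in 3 of the 13 (MNT, MLX and MXD4) and in 7.26% of all 35116 promoters. The GC box GGGCGG (or CCGCCC) was in 12 of 13, against 45% of all promoters, and CCAAT (or ATTGG) was in 6 of 13, against 34.6%. Hits were counted with overlaps. A match describes the letters of a window and does not show that a factor is bound there.

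The stretches below come from the 3 promoters with an E-box and from that of MXD1, which was called in both knockdowns. The others are those of SP1 (both starts) and SP2, which hold the most GC boxes and CCAAT boxes among the 9 members examined. Each is the run of that promoter outside annotated exons, 5′ to 3′ on the strand of its gene, with E-boxes, GC boxes and CCAAT boxes in capitals. MNT is at chr17:2401119-2401310, minus strand, MLX at chr17:42566850-42567067, plus strand, MXD4 at chr4:2262295-2262359, minus strand, MXD1 at chr2:69914859-69915040, plus strand, SP1 at chr12:53379926-53380175 and, downstream, at chr12:53380394-53380638, plus strand, and SP2 at chr17:47895986-47896149, plus strand.
MNT: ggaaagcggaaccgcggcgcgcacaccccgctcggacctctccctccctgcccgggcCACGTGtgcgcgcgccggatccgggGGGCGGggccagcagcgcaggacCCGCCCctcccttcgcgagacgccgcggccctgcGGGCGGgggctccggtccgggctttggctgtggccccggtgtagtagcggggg
MLX: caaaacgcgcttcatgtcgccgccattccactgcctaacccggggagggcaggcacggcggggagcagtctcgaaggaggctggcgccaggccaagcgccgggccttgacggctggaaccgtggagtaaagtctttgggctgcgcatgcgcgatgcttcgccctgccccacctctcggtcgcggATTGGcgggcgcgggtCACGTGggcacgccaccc
MXD4: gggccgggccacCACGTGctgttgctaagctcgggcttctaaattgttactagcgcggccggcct
MXD1: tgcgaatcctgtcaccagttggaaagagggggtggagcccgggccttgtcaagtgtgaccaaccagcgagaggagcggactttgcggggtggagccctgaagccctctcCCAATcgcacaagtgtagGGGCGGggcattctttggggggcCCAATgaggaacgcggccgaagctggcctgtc
SP1 upstream start: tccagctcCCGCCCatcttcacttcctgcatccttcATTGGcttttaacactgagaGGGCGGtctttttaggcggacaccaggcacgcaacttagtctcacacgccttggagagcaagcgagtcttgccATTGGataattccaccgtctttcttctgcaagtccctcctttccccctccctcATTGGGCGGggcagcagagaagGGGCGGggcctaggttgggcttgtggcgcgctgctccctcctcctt
SP1 downstream start: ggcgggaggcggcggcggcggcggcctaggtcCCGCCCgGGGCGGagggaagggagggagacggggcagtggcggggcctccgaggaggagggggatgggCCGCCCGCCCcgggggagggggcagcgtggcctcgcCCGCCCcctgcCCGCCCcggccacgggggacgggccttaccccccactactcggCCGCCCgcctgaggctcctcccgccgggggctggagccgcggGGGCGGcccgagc
SP2: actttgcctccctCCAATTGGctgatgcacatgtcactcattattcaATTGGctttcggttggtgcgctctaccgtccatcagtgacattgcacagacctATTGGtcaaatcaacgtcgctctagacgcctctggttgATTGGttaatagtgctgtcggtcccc

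The MNT stretch holds 1 E-box and 3 GC boxes, the MLX stretch 1 E-box and 1 CCAAT box, and the MXD4 stretch 1 E-box. MXD1 has no E-box and holds 1 GC box and 2 CCAAT boxes in the stretch shown. SP1 has 4 GC boxes and 3 CCAAT boxes at its upstream start, where a CCAAT box and a GC box overlap. Its downstream start has 10 GC boxes in 300 bases, of which 8 are in the stretch shown, a number reached by 0.214% of all promoters. SP2 has 8 CCAAT boxes in its full window, of which 5 are in the stretch shown, and 0.0057% of all promoters hold as many. Of the 3 promoters with an E-box, that of MNT belonged to a called gene, and MLX and MXD4 were not called in any comparison.

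The motif GGACU, one form of the sequence in which m6A is placed, was counted in the longest GENCODE transcript of each member. MXD3 held 7 in 2279 bases, or 3.07 per kilobase, more than 98.0% of tested genes. MYC held 1.69 per kilobase and MNT 1.40, above the median of 0.909 over 16662 genes, while MLX held 1.16 and MAX 0.951. The other 5 were below that median: MXD4 at 0.710, MXI1 at 0.576, SP1 at 0.526, MXD1 at 0.358 and SP2 at 0.321. The member with the highest density, MXD3, was called in no comparison, and MXD1, called in both knockdowns, had the second lowest. No m6A was measured in these libraries.

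Genes around the network were read against the share of all genes called, 16.5% in shMETTL3 and 6.69% in shMETTL14 cells. The lists were not matched to all genes in read depth, and small changes are called more easily at high counts, so these shares are not strictly alike. Of 5 other family members (MYCN, MYCL, MGA, MLXIP and MLXIPL), 4 could be tested, and none was called against shCTR in either knockdown, while MYCN had at most 1 read in a library and MLXIP was called between the knockdowns (-0.37). Of 9 tested SP family members and SP1 partners, SP6 alone (11.1%) was called against the controls, in shMETTL3 cells, with 84 and 122 reads in the controls and 278 and 287 in shMETTL3 libraries (log2 fold change 1.42, SE 0.16, edgeR adjusted p = 5.19e-06). SP6 is known as a factor of skin and tooth development. Of 20 MYC cofactors, 1 rose and 1 fell in shMETTL3 cells (PAF1 at 0.22 and MYCBP at -0.23), or 10.0%, below the 16.5% of all genes, and none was called in shMETTL14 cells. Both cofactor calls were lost under most alternatives, over which 0 to 5 of the 20 passed, and MYCBP shares 36.7% of its exonic bases with other genes.

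Of 11 SIN3 and NCOR corepressors, through which the MXD proteins and MNT act, 2 (18.2%) were called in shMETTL3 cells, near the 16.5% of all genes, and both fell: the deacetylase HDAC1 (log2 fold change -0.23, edgeR adjusted p = 0.0150) and NCOR1 (-0.21, edgeR adjusted p = 0.0411). The call of NCOR1 was lost under 9 of 13 alternatives, and no corepressor passed without shMETTL3-2 or with library size alone, against 5 without shCTR-2 and 1 without any other single library. In shMETTL14 cells the histone-binding subunit RBBP4 fell by 0.27 on the log2 scale (edgeR adjusted p = 0.00919), a call lost without either shMETTL14 library, and 3 of the 11 passed without shCTR-2. Of 20 genes for MYC protein turnover, 2 (10.0%) were called in shMETTL3 cells, below the 16.5% of all genes, and both fell: the deubiquitinase USP28 (-0.26) and the kinase PIM2 (-0.22). Both calls were lost without shMETTL3-1 or shMETTL3-2. None of the 20 was called in shMETTL14 cells, while 3 passed without shCTR-2.

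Of 13 genes tied to the MYC transcript (its neighbour PVT1 and RNA-binding proteins), 4 (30.8%) fell and none rose in shMETTL3 cells, beside 7.73% of all genes lower and 8.73% higher. The median log2 fold change was -0.12, and -0.06 with library size alone. PVT1, a long noncoding RNA whose gene lies beside MYC, had 345 and 404 reads in the controls and 248 and 244 in shMETTL3 libraries (log2 fold change -0.64, SE 0.115, edgeR adjusted p = 7.78e-04), and it passed under all 13 alternatives. PCBP2 (-0.32) and HNRNPD (-0.18) also fell, and PCBP2 shares 32.7% of its exonic bases with other genes. The call of HNRNPD was lost under 4 of 13 alternatives. Without shMETTL3-1, without shMETTL3-2 or with library size alone, 2 of the 13 passed. In shMETTL14 cells none of the 13 was called, and PVT1 had 370 and 402 reads.

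Genes that MYC is known to activate were more often lower than higher in both knockdowns. Of 45 such genes, 12 fell and 3 rose in shMETTL3 cells (33.3% called), beside 7.73% of all genes lower and 8.73% higher. The median log2 fold change was -0.11, against 0.0030 over all genes, and -0.06 with library size alone. CDC25A, the phosphatase that starts S phase, had 1181 and 1085 reads in the controls and 625 and 645 in shMETTL3 libraries (log2 fold change -0.86, SE 0.0739, edgeR adjusted p = 1.60e-07). In the opposite direction, the cell-cycle factors E2F1 (0.49, edgeR adjusted p = 8.40e-04) and E2F2 (0.46, edgeR adjusted p = 0.00239) rose, and the call of E2F2 was lost without shMETTL3-2. The translation factor EIF4A1 fell by 0.52 on the log2 scale, but 48.6% of its exonic bases are shared with other genes and its call was lost in DESeq2 and without shCTR-1 or shMETTL3-2. The list held 4 calls without shMETTL3-2 and 8 without shMETTL3-1, in place of 15, and with library size alone 5 rose and 6 fell.

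In shMETTL14 cells 6 of the 45 (13.3%) fell and none rose, beside 3.26% of all genes lower and 3.43% higher, with a median of -0.10. SRM, the spermidine synthase, had 1411 and 1552 reads in the controls and 1102 and 1115 in shMETTL14 libraries (log2 fold change -0.43, SE 0.0722, edgeR adjusted p = 7.27e-04), and ODC1, the first enzyme of polyamine synthesis, fell by 0.25 on the log2 scale (edgeR adjusted p = 0.00976). DKC1 (-0.23) and IMPDH2 (-0.21), enzymes of RNA modification and of guanine nucleotide synthesis, fell as well. The calls of ODC1, DKC1 and IMPDH2 were lost without shMETTL14-1 or shMETTL14-2. Of the 45, 1 passed without shMETTL14-1 or without shMETTL14-2, 2 without shMETTL3-1, 3 without shMETTL3-2 or with the compared groups alone, and 10 without shCTR-2. MYC itself was not called in shMETTL14 cells.

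Genes that MYC is known to repress went both ways. Of 24, 17 could be tested, and in shMETTL3 cells 5 rose and 4 fell (52.9% called), beside 8.73% of all genes higher and 7.73% lower. The median was 0.145, but 0.067 without shCTR-1, 0.092 without shMETTL3-2 and 0.426 with no filter on low counts. GAS2, a growth-arrest gene, had 252 and 241 reads in the controls and 548 and 578 in shMETTL3 libraries (log2 fold change 1.16, SE 0.0954, edgeR adjusted p = 9.92e-08). CDKN1A, the inhibitor p21 of cyclin-dependent kinases, had 664 and 716 against 1413 and 1471 reads (1.03, SE 0.0771, edgeR adjusted p = 2.94e-08), and the stress gene NDRG1 rose by 0.84 on the log2 scale. GADD45B fell by 0.70 on the log2 scale, from 178 and 126 to 110 and 80 reads, and its call was lost without shCTR-1, without shMETTL3-2 and in DESeq2.

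In shMETTL14 cells 3 of the 17 rose and 2 fell (29.4% called), beside 3.43% of all genes higher and 3.26% lower. The median was -0.10, but -0.05 without shCTR-1 or without shMETTL14-1, -0.16 without shCTR-2 and -0.01 with no filter on low counts. GAS2 (1.27, edgeR adjusted p = 7.86e-08) and NDRG1 (0.97, edgeR adjusted p = 6.84e-06) were higher there too, both against the same shCTR libraries. BTG2, an antiproliferative gene, rose by 0.66 on the log2 scale, and CCND1, the cyclin D1 gene, fell from 726 and 780 to 428 and 350 reads (-0.97, SE 0.0968, edgeR adjusted p = 2.74e-06). Without shCTR-2, 8 of the 17 passed in place of 5.

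**Figure D4:**
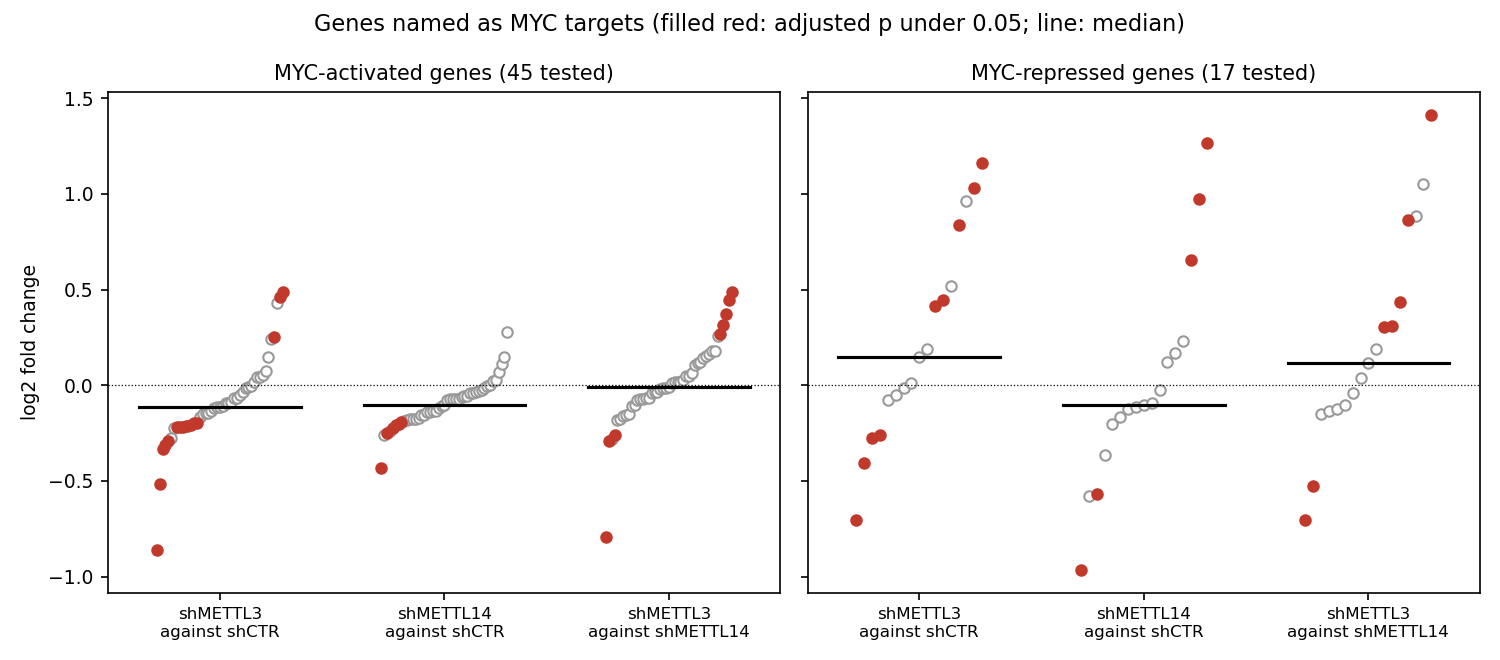
Log2 fold changes (vertical axis) of 45 MYC-activated and 17 MYC-repressed genes in 3 comparisons, each point 1 gene in rising order; filled red points passed the threshold on the edgeR adjusted p and horizontal lines are medians. The activated genes had medians of -0.11 and -0.10 against shCTR, and the repressed genes went both ways.

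Of 18 genes with SP1-bound promoters, 4 rose and 1 fell in shMETTL3 cells (27.8% called), beside 8.73% of all genes higher and 7.73% lower. The median log2 fold change was 0.01 and lay between -0.02 and 0.07 over the alternatives. INSR rose by 0.99 on the log2 scale, from 36 and 34 to 81 and 61 reads, a call lost without shMETTL3-1, and THBS1, an angiogenesis inhibitor, rose from 355 and 332 to 499 and 601 reads (0.65, edgeR adjusted p = 2.81e-04). MAOA was called at 6 to 22 reads a library, and its call was lost in 7 of 12 alternatives. ATM, the DNA damage kinase, fell by 0.44 on the log2 scale. In shMETTL14 cells 1 rose and 3 fell (22.2% called, beside 6.69% of all genes), with THBS1 at 176 and 160 reads (-1.04, edgeR adjusted p = 1.27e-05), ADA at -0.35, VEGFA at -0.31 and TK1 at 0.29. Without shMETTL14-1 the calls of ADA, VEGFA and TK1 were lost. Without shMETTL3-1, 3 of the 18 passed in shMETTL3 cells, against 9 with the GC and length correction, and in shMETTL14 cells 1 passed without shMETTL14-1, 2 without shMETTL14-2 and 7 without shCTR-2.

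Across the 6 libraries, the log2 CPM of 12155 genes with at least 50 reads in every library was set beside that of MYC, SP1 and SP2, as a description. Closest to MYC were DPF2 (Pearson r = 0.997), UBE2D3 (0.996) and ISOC1 (0.993), and 77 genes had an r over 0.95. Closest to SP1 were LINC00470 (0.996), ZFHX4 (0.986) and H2BC18 (0.982), and closest to SP2 were NME3 (0.992), TPRN (0.992) and NCLN (0.991). MYC ranged over 0.28, SP1 over 0.19 and SP2 over 0.36 on the log2 scale, so these likenesses rest on small differences between libraries that share depth and preparation.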

How the data were processed

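RNA of K562 cells was extracted with TRIzol, enriched for polyadenylated RNA and sequenced. The authors deposited 1 table of raw read counts, whole numbers per gene and not normalized, for 61661 identifiers. Per the submitters' processing notes HTSeq 0.6.1 and hg38 were used, and the aligner, annotation and strand setting are not given in the sources used here. Every column matched 1 labelled sample, so 0 columns were left out. Symbols, lengths, GC content and exon overlaps came from GENCODE release 29, promoters from RefSeq GRCh38.p14.

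Testing used edgeR 4.0.16 in R 4.3.3. A minimum count of 10 in filterByExpr left 17686 genes, libraries were scaled by TMM, and 1 quasi-likelihood fit over the 6 libraries gave the 3 comparisons, with Benjamini-Hochberg adjustment over all genes tested and a threshold of 0.05. Standard errors and 95% intervals are from that fit. At 19292574 reads or more a library, each member had at least 439 reads in every library. No molecular identifiers are named, so PCR copies were not told apart. The scripts were tested on simulated data.

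Alternatives were DESeq2 1.42.0, its size factors, library size alone, no filter on low counts, a fit of the groups compared alone, a replicate block, a GC and length correction (mgcv 1.9.3, 94.21% of genes), and leaving out single libraries. The members and the gene lists, written from general knowledge, were chosen with earlier results of these data known. Of each list, the text names at most the 4 called genes with the largest change per comparison (for a gene so named, values in the other comparisons may stand beside it), and for MYC, SP1 and SP2 the 3 genes most correlated over the 6 libraries. A gene that meets this rule is not reported here.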

Additional observations from a re-analysis of the deposited data

Results flagged for a closer look

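None of the 10 members passed the threshold between the knockdowns, where 12.1% of all genes did. Of the list genes, 19 named by the rule passed, as did METTL3 (log2 fold change of shMETTL3 against shMETTL14 -0.73) and METTL14 (0.89). The rule limits how many genes of a list are named, so 19 is not the number of list genes called. It gives no share to set against the members. Each call was by the edgeR contrast of both knockdowns at an adjusted p under 0.05. The values that follow are log2 fold changes of the same contrast. Higher in shMETTL3 than in shMETTL14 cells were THBS1 (1.69), CCND1 (1.41), SP6 (0.90), CDKN1A (0.86), VEGFA (0.59), SRM (0.49), ADA (0.46), E2F2 (0.44) and E2F1 (0.37). Lower were CDC25A (-0.79), BTG2 (-0.71), PVT1 (-0.67), BTG1 (-0.53), MLXIP (-0.37), ATM (-0.31), USP28 (-0.27), SKP1 (-0.23), DHX9 (-0.20) and PIM1 (-0.18). CCND1, THBS1 and VEGFA were called in opposite directions against shCTR. In shMETTL3 cells they stood at 0.45, 0.65 and 0.28, and in shMETTL14 cells at -0.97, -1.04 and -0.31. MLXIP, a partner of MLX that senses glucose, had 5339 and 5992 reads in shMETTL3 and 7068 and 7371 in shMETTL14 libraries, against 5961 and 6420 reads in shCTR libraries. The summed monocyte markers, of which 2 of 4 had more than 3 reads in any library, differed in this contrast too. They stood at 17.4 and 16.1 CPM in shMETTL3 and 60.5 and 66.1 CPM in shMETTL14 libraries, and their part in it was not tested. Of these 19, the calls of THBS1, CCND1, SP6, CDKN1A, VEGFA, SRM, CDC25A, BTG2, PVT1, BTG1 and MLXIP held under all 13 alternatives.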

How the results depend on the processing

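The member calls in shMETTL3 cells rested on few libraries. Leaving out 1 library at a time, the members called were 0 to 4 in shMETTL3, 1 to 3 in shMETTL14 and 0 to 2 between the knockdowns, and over all genes 1102 to 3569, 341 to 1913 and 942 to 2953 passed, against 2912, 1184 and 2148 in full. DESeq2 called 1881, 763 and 1327 genes, with 4, 1 and 0 members. Without the filter on low counts, 766 genes passed in shMETTL14 cells. With the GC and length correction, 2 members passed in shMETTL14 and 1 between the knockdowns, and with the compared groups alone 2 passed between the knockdowns. The labels number libraries alike in each group but do not say whether same-numbered libraries belong together. Their deviations correlated at 0.175 (shCTR with shMETTL3), -0.025 (shCTR with shMETTL14) and -0.034 (shMETTL3 with shMETTL14). With 2 libraries a group, these values do not settle whether same-numbered libraries share a batch, and the main fit did not pair them. The 2 libraries of shCTR, the reference of both knockdowns, lay furthest apart. A chi-square between the libraries of a group averaged 6.75 per gene in shCTR, 3.66 in shMETTL3 and 2.96 in shMETTL14 (12769 genes). With the replicate block 4, 1 and 0 members and 3264, 1459 and 2478 genes passed, and 8 of 17 MYC-repressed genes in shMETTL14 cells. No result changed sign past the threshold. Each member had at least 439 reads in every library, and the fit had 3 residual degrees of freedom.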
